A study of Mus musculus with 36 samples.

Results

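The genes described here encode 10 enzymes of glycolysis, and they were taken by symbol from the 36172 gene entries of the deposited table. They were the hexokinases Hk1, Hk2 and Hk3, the phosphofructokinases Pfkl, Pfkm and Pfkp, the aldolase Aldoa, the pyruvate kinase Pkm, and the lactate dehydrogenases Ldha and Ldhb. All 10 were found, and all 10 passed the filter on low counts in each of the fits below. Levels are given as CPM, the count of a gene relative to the size of its library, scaled by the trimmed mean of M values (TMM) over all 36 libraries.

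RNA was measured by polyA RNA-seq in the hippocampus of Cx3cr1-NuTRAP mice, in which Cre is driven by the Cx3cr1 promoter, active in microglia and their relatives among macrophages, and turns on a ribosome tag that an antibody against GFP can capture. The inputs, labelled whole tissue, were cleared homogenate set aside before the pulldown. The first group held inputs of 10 young, early-induced mice (6 months, 5 females and 5 males), and the second held inputs of 12 old, early-induced mice (22 months, 7 females and 5 males). The third held inputs of 7 old, late-induced mice (22 months, 5 females and 2 males), and the fourth held the pulldowns (translating ribosome affinity purification, TRAP) of the same 7 mice, labelled Pos and microglia. All mice share the genotype label Cx3cr1-NuTRAP and all were induced, so no group lacks Cre, and mice induced late were present only among the old. The Cx3cr1 promoter is also active in macrophages at the borders of the brain and in monocytes. Nothing in the labels says that input libraries of the groups were prepared together, and the sample-sheet numbers run by group, so age or induction and the order of preparation cannot be told apart in the inputs.

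Glycolysis splits glucose into pyruvate, and many of its steps can be catalysed by enzymes from several genes whose use differs between cell types. Hexokinase traps glucose as glucose 6-phosphate, phosphofructokinase commits it to the pathway, aldolase splits the sugar, pyruvate kinase makes pyruvate and ATP, and lactate dehydrogenase interconverts pyruvate and lactate. Hk1 is the main hexokinase of neurons and of brain as a whole, Hk2 is an inducible form, and Hk3 is a form of myeloid cells. Microglia are the resident macrophages of the brain and raise glycolysis when activated.

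Library totals ran from 12.9 to 20.4 M estimated counts. The pulldown raised all 20 microglia markers of a list (median log2 fold change 4.28), whose summed level was 914 to 1324 CPM in the old late inputs and 16506 to 26484 CPM in TRAP. It also raised 8 of 8 markers of border macrophages and 7 of 7 of endothelial cells, and it left much RNA of other cells. The summed level of 10 neuron markers was 10344 to 11308 CPM in input and 8358 to 10045 CPM in TRAP, and that of 10 astrocyte markers was 3624 to 4475 CPM in input and 2653 to 3977 CPM in TRAP. Choroid plexus markers varied widely, from 48.7 to 3082 CPM in the young inputs and 47.8 to 3445 CPM in the old late inputs. In the 12 old early inputs they ran from 47.2 to 4099 CPM. Of those 12, 1 library held 2273 CPM of red blood cell markers against a group median of 249.6. In bulk RNA, fewer cells of a type and less RNA per cell cannot be told apart.

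Per length of transcript, the enzymes spanned a wide range in the inputs. In the young inputs Aldoa was the most abundant, at 1250 ± 32.5 CPM per kb of transcript (SD, n = 10), followed by Pkm at 677 ± 17.3, Ldhb at 334 ± 19.6, Pfkm at 164 ± 6.28, Ldha at 151 ± 7.38, Hk1 at 138 ± 4.15, Pfkl at 110 ± 4.13 and Pfkp at 64.0 ± 2.66. Hk2 at 1.6 ± 0.299 and Hk3 at 0.559 ± 0.182 CPM per kb were the lowest. The ranges of Pfkm and Ldha overlapped, as did those of Ldha and Hk1, so the order within that middle group was not set beyond the spread of libraries. In TRAP the order at the top was kept, with Aldoa at 1320 ± 59.6, Pkm at 747 ± 37.8 and Ldhb at 476 ± 43.8 CPM per kb (SD, n = 7). Hk2 at 19.9 ± 4.84 and Hk3 at 14.4 ± 5.12 CPM per kb still came last in TRAP, and their ranges overlapped, with Hk2 above Hk3 in 7 of 7 libraries.

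The promoters of the 3 hexokinase genes are shown because these genes parted most in the pulldown. Each window holds 250 bases before and 50 bases after a transcription start in RefSeq (build GRCm38.p6), written 5′ to 3′ on the strand of the gene, here the minus strand in each case. Capitals mark matches on either strand to the core of the hypoxia response element (ACGTG or GCGTG), the GC box (GGGCGG) and a core of ETS factors such as PU.1 (AGGAAGT). Matches that touch or overlap share a run of capitals. The motifs were chosen after the sequences had been seen.
Hk1, chr10:62340372-62340671: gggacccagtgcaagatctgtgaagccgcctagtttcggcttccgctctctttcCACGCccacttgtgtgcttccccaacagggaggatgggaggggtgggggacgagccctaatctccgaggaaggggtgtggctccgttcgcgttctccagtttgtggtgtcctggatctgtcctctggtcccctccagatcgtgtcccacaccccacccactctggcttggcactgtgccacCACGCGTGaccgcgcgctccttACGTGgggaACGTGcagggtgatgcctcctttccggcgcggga
Hk2, chr6:82774405-82774704: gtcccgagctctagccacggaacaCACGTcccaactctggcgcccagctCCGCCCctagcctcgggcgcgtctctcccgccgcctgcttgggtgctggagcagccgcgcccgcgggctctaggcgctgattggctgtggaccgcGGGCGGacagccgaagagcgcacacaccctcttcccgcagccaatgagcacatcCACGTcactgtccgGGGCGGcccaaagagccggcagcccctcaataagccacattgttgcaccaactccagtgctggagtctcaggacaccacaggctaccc
Hk3, chr13:55021336-55021635: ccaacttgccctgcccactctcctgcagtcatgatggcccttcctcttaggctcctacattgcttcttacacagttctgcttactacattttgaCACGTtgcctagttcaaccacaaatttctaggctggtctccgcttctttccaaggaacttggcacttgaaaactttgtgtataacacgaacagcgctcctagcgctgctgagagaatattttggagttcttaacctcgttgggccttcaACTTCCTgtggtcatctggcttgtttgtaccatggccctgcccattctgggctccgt
The Hk1 window, at an annotated start inside the gene, held 5 hypoxia cores, and the window at the outermost Hk1 start held no match to any of these motifs. The Hk2 window held 2 hypoxia cores and 3 GC boxes. The Hk3 window held 1 hypoxia core and 1 ETS core, written ACTTCCT on this strand, and no GC box. Of 32851 windows of this length, 43.8% held either hypoxia core, 35.7% a GC box and 9.4% the ETS core. A match is a run of letters and was not measured as a bound site here.

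The first comparison asked which isozymes the microglial pulldown enriched. Hk2 and Hk3 rose 9.2-fold and 17.6-fold in TRAP over the input of the same animals, Pfkl and Ldhb rose by less, Hk1, Pfkm and Pfkp fell slightly, and Aldoa, Pkm and Ldha did not pass the test. In all, 7 of the 10 genes were called at an adjusted p under 0.05, 4 higher and 3 lower, against 59.2% of the 14596 genes tested. Over all genes 30.4% were called higher and 28.8% lower, so the count of calls among the enzymes was near the background. The TRAP and input libraries did not overlap for 3 of the 10 (Hk2, Hk3 and Pfkl), against 29.1% of 15156 genes. The median log2 fold change was 0.07 over the 10 enzymes and -0.02 over all genes tested. Adjusted p values are from edgeR's quasi-likelihood test with Benjamini-Hochberg adjustment over all genes.

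Hk2 (gene 15277, chr6:82725027-82774454) stood at 8.89 to 13.9 CPM in the 7 inputs (median 12.4) and at 87.9 to 166 CPM in the 7 TRAP libraries (median 101.0). No TRAP library overlapped the inputs. Its log2 fold change was 3.20 ± 0.11 (SE, adjusted p = 2.17e-13), the 437th largest of all genes tested. Per animal the log2 ratio of TRAP to input ran from 2.85 to 3.56.

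Hk3 (gene 212032, chr13:55005985-55021385) stood at 1.11 to 3.54 CPM in the inputs (median 2.8) and at 29.2 to 78.1 CPM in TRAP (median 42.0). Again no library overlapped. Its log2 fold change was 4.14 ± 0.20 (SE, adjusted p = 1.14e-11), the 134th largest, and both hexokinases lay within the range of the 20 microglia markers, 2.93 to 4.45. The 34 bases at the 3′ end of Hk3 that overlap the 3′ end of Unc5a on the other strand bear on its level in the inputs. Unc5a had a median of 3097 counts in the old late inputs, and 34 of its 4168 exonic bases correspond to 25.3 of these, while Hk3 had 18 to 63 counts there. In TRAP the same arithmetic gave 18.9 against 368 to 1286 counts of Hk3. How reads of the shared bases were assigned is not given in the sources used here, and their part in the level was not tested.

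Hk3 is also a gene of neutrophils and monocytes. The 13 markers of these cells summed to 11.2 to 17.4 CPM in the old late inputs and to 5.04 to 8.13 CPM in TRAP, while Hk3 stood at 1.11 to 3.54 CPM and 29.2 to 78.1 CPM in the same groups. Levels of different genes do not show which cells made the Hk3 RNA. Ly6g and Camp were at 0 in all 7 TRAP libraries, and S100a8, Retnlg and Chil3 had at most 3 counts in any of them. Of the 3 markers that could be tested, Ccr2 and Ly6c2, both of monocytes, were higher in TRAP and Cxcr2 was lower. Border macrophage markers summed to 388 to 652 CPM in TRAP and 23.4 to 54.5 CPM in input, and the part of neutrophils, monocytes and border macrophages in Hk2 and Hk3 was not tested.

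Hk1 (gene 15275, chr10:62268855-62379908) ran the other way. It stood at 485 to 547 CPM in the inputs (median 517) and 437 to 504 CPM in TRAP (median 446), with 5 of 7 TRAP libraries below every input. Its log2 fold change was -0.19 ± 0.05 (SE, adjusted p = 0.00245), and it was lower in 6 of 7 animals.

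**Figure D1:**
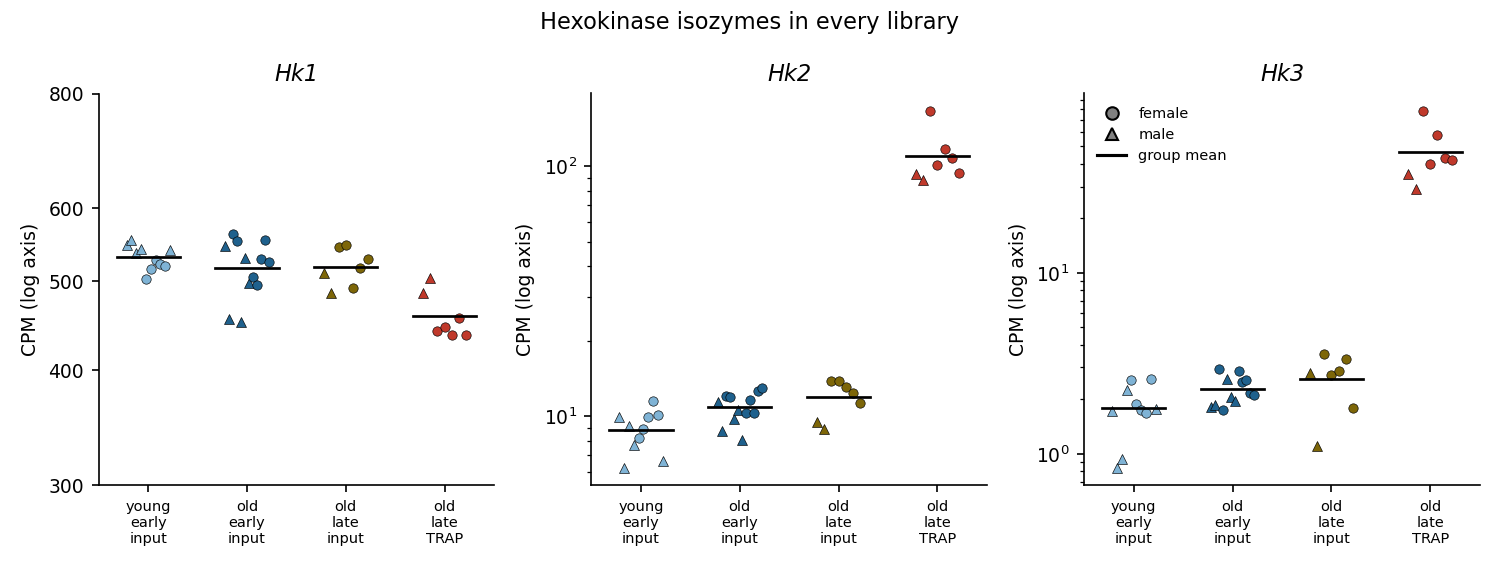
CPM of Hk1, Hk2 and Hk3 in each of the 36 libraries, on log axes with a different range per gene. Circles are females, triangles males and lines group means. Hk2 and Hk3 in TRAP lie above every input, while Hk1 in TRAP lies mostly below.

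Because scaling cancels within a library, the ratio of isozymes at 1 step is the more direct comparison. Each ratio was a difference of log2 CPM (prior count 2), and TRAP was set against input in each of the 7 animals. Of 6 ratios, 5 differed at an adjusted p of 0.0187 by the exact two-sided sign-flip test, whose smallest p over 7 animals is 0.0156. The ratio of Hk2 to Hk1 was higher in TRAP by 3.36 ± 0.23 on the log2 scale (SD, n = 7) and that of Hk3 to Hk1 by 4.29 ± 0.43. The ratio of Hk3 to Hk2 was higher by 0.93 ± 0.39, from 0.31 to 1.41 over animals, so Hk3 was enriched more than Hk2 in 7 of 7. Pfkl against Pfkm rose by 0.39 ± 0.13, and Ldha against Ldhb fell by 0.16 ± 0.08. Pfkp against Pfkm differed by -0.05 ± 0.08 (exact p = 0.156, adjusted p = 0.156), higher in 3 of 7 animals.

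Expressed as shares of the summed CPM per kb of Hk1, Hk2 and Hk3, Hk1 made up 97.9 ± 0.374% of the hexokinase RNA in the old late inputs (SD, n = 7) and 77.8 ± 5.32% in TRAP. Hk2 went from 1.56 ± 0.228% to 12.9 ± 2.49% and Hk3 from 0.584 ± 0.184% to 9.36 ± 2.88%. Hk1 thus remained the largest hexokinase transcript of the pulldown, at 67.8% or more in each library, in RNA that also held the neuron markers given above. How much of the Hk1 in TRAP came from neurons or astrocytes was not tested.

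**Figure D2:**
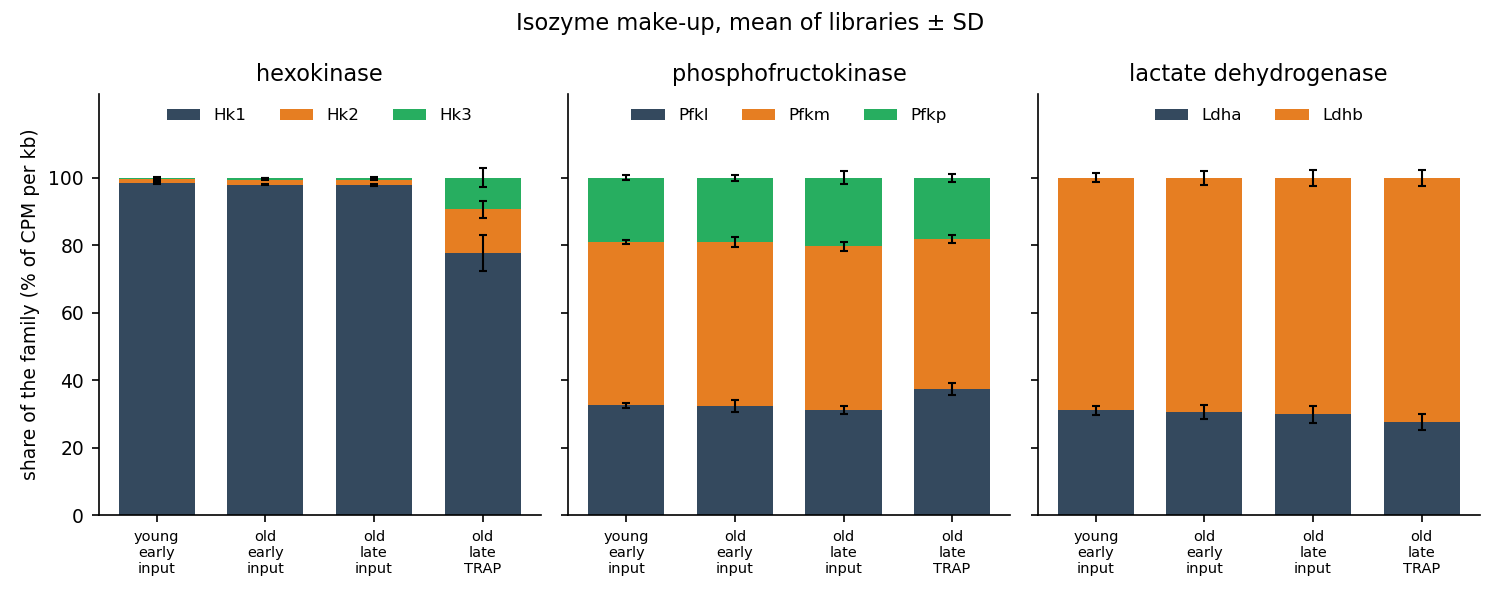
Share of each isozyme in the CPM per kb of its family, as a mean over libraries with SD bars, in the 4 groups (n = 10, 12, 7 and 7). Only the hexokinase panel changes its make-up strongly in TRAP, where Hk2 and Hk3 reach 12.9% and 9.36%.

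At the phosphofructokinase step the changes were small. Pfkl (gene 18641, chr10:77986949-78009796), named for liver and expressed in many tissues, stood at 373 to 408 CPM in input (median 393) and 414 to 489.8 CPM in TRAP (median 452). No library overlapped, and the log2 fold change was 0.21 ± 0.05 (SE, adjusted p = 0.000941). Pfkm (gene 18642, chr15:98092589-98132447), the muscle form, stood at 456 to 494 CPM in input (median 464) and 393 to 457 CPM in TRAP (median 418), a log2 fold change of -0.19 ± 0.04 (SE, adjusted p = 0.00125). Pfkp (gene 56421, chr13:6579874-6648724), the platelet form, stood at 242 to 349 CPM in input (median 273) and 208 to 274 CPM in TRAP (median 242). It was lower in 7 of 7 animals, with a log2 fold change of -0.24 ± 0.08 (SE, adjusted p = 0.0167), although the groups overlapped. Without the input of replicate 6 the adjusted p for Pfkp was 0.0502. Pfkp shares 748 exonic bases with Pitrm1 on the other strand in GENCODE M21. Pfkl made up 31.1 ± 1.16% of the 3 transcripts in input and 37.4 ± 1.82% in TRAP (SD, n = 7).

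In the lower part of the pathway, Ldhb (gene 16832, chr6:142490249-142507943), the subunit that dominates in tissues that oxidise lactate, stood at 481 to 541 CPM in input (median 523) and 533 to 700 CPM in TRAP (median 606). It was higher in 7 of 7 animals, with a log2 fold change of 0.26 ± 0.06 (SE, adjusted p = 0.00073). Ldha (gene 16828, chr7:46845804-46855627), the subunit of strongly glycolytic tissues, stood at 269 to 348 CPM in input (median 289) and 291 to 342 CPM in TRAP (median 325), and its log2 fold change of 0.09 ± 0.06 did not pass the test (adjusted p = 0.183). Aldoa (gene 11674, chr7:126795234-126800447) stood at 1890.1 to 1991 CPM in input and 1883 to 2090.1 CPM in TRAP (log2 fold change 0.03 ± 0.04, adjusted p = 0.555). Pkm (gene 18746, chr9:59656368-59679375) stood at 1655 to 1818 CPM in input and 1657 to 1933 CPM in TRAP (0.06 ± 0.04, adjusted p = 0.25). Transcripts of the splice forms of Pkm were not separated in these gene counts. Retrocopies of Aldoa and Ldha held few counts relative to those genes. The largest was Aldoart1, at 173.3 to 301.3 counts per library and 0.76% of the Aldoa counts.

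The small changes depend on how libraries were scaled. With upper quartile scaling or library size only, the median of all genes moved from -0.02 to -0.16 and -0.13, and the share of calls that were higher moved from 51.4% to 34% and 38.3%. Aldoa, Pkm and Ldha then had negative log2 fold changes (-0.12, -0.09 and -0.05 with upper quartile scaling), and Pfkl at 0.06 no longer passed (adjusted p = 0.251), nor did Ldhb with upper quartile scaling at 0.12 (adjusted p = 0.0643). A change of scaling shifts all genes by about the same amount, so it could not alter the distance of a gene from the median of all genes. For these 5 genes that distance ran from 0.05 for Aldoa to 0.28 for Ldhb under each scaling, which adds no support. Hk2 and Hk3 stayed at 3.05 and 3.99 or more.

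Other genes of the pathway were counted from fixed lists. Of 14 other glycolysis enzymes tested, 1 was higher in TRAP and 5 were lower, where 30.4% and 28.8% of all genes were, so the share of lower calls was near the background. The gene that was higher was Eno3, an enolase named for muscle, from 6.5 ± 0.756 to 12.2 ± 1.95 CPM (SD, n = 7, log2 fold change 0.90 ± 0.12, adjusted p = 4.9e-06). The largest decrease was in Aldoc, the aldolase of astrocytes, from 882 ± 35.4 to 674 ± 98.6 CPM (log2 fold change -0.40 ± 0.07, adjusted p = 6.82e-05). The 4 others, listed after their values were seen, were Gpi1, Pgk1, Eno2 and Bpgm, with log2 fold changes between -0.40 and -0.10.

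Of 9 regulators of glycolysis and pyruvate entry tested, 4 were higher and 4 lower in TRAP (59.2% of all genes were called). Pfkfb4, which makes the activator of phosphofructokinase, rose most, from 14.6 ± 1.53 to 37.4 ± 9.57 CPM (log2 fold change 1.33 ± 0.12, adjusted p = 3.58e-08). Pdk4, which inhibits pyruvate dehydrogenase, fell most, from 17.8 ± 3.03 to 9.03 ± 1.88 CPM (log2 fold change -0.99 ± 0.14, adjusted p = 1.04e-05). Of 11 transporters of glucose, lactate and pyruvate, 6 were higher and 3 lower, against 30.4% and 28.8% of all genes. Slc2a5, the hexose transporter GLUT5 known from microglia, rose from 7.71 ± 1.03 to 144 ± 17.2 CPM (log2 fold change 4.21 ± 0.10, adjusted p = 2.72e-15), and Slc2a4, the insulin-responsive GLUT4, fell from 1.26 ± 0.474 to 0.65 ± 0.175 CPM (log2 fold change -0.96 ± 0.31, adjusted p = 0.0135).

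**Figure D3:**
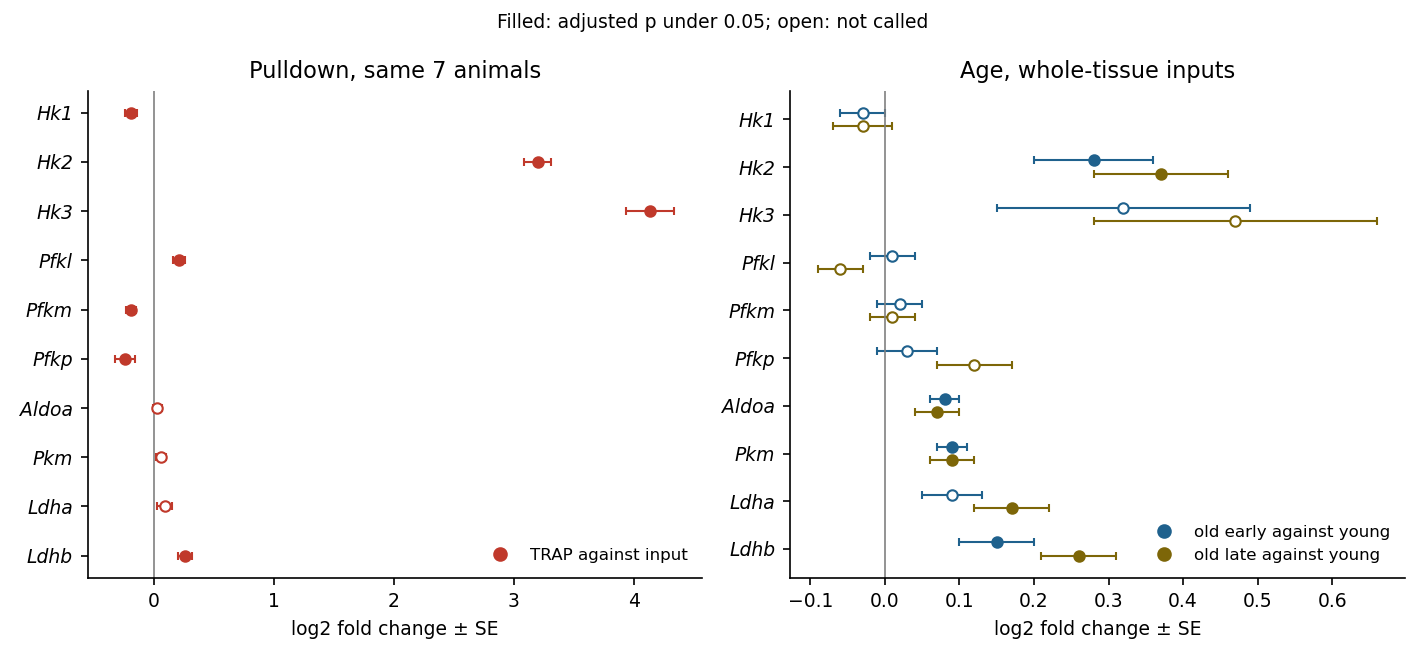
Log2 fold changes with SE of the 10 enzymes, on the left TRAP against input and on the right old early and old late inputs against young inputs. Filled points have an adjusted p under 0.05. Hk2 and Hk3 stand at 3.20 and 4.14 on the left, and no called point on the right is negative.

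The second comparison asked how the enzymes differed with age in whole tissue at the same early induction. In the old early inputs Hk2, Aldoa, Pkm and Ldhb were higher than in the young, by 1.06 to 1.22 fold, and the other 6 did not pass the test. The 4 calls of 10, all higher, stand against 25.6% of the 14948 genes tested that were called in either direction and 13% of the genes tested that were called higher. The median log2 fold change was 0.09 for the enzymes and 0.01 for all genes. With females only, 7 old against 5 young, 0 of the 10 passed, and 1198 genes passed in all against 3826 with both sexes.

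Hk2 stood at 6.24 to 11.5 CPM in the young inputs (median 9.02) and 8.05 to 13 CPM in the old early inputs (median 11). The groups overlapped, with 5 of 12 old libraries above every young library. The log2 fold change was 0.28 ± 0.08 (SE, adjusted p = 0.00933). Hk3 stood at 0.84 to 2.58 CPM in the young (median 1.76) and 1.75 to 2.95 CPM in the old early inputs (median 2.14), and its log2 fold change of 0.32 ± 0.17 did not pass (adjusted p = 0.164). On 14 to 54 counts per library, its SE was the largest of the 10 genes. Hk1 stood at 503 to 555 CPM in the young and 451 to 563 CPM in the old early inputs (log2 fold change -0.03 ± 0.03, adjusted p = 0.504).

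Pkm rose from 1647 ± 42.2 CPM (SD, n = 10) to 1739 ± 54.2 CPM (SD, n = 12), and its log2 fold change was 0.09 ± 0.02 (adjusted p = 0.00322). Aldoa rose from 1883 ± 49.1 to 1981 ± 73.7 CPM, a log2 fold change of 0.08 ± 0.02 (adjusted p = 0.00622). Each was 1.06-fold higher, with 6 of 12 old libraries for Pkm and 7 of 12 for Aldoa above every young one. Ldhb rose from 435 ± 25.5 to 479 ± 48.5 CPM, a log2 fold change of 0.15 ± 0.05 (adjusted p = 0.0178), and Ldha at 0.09 ± 0.04 did not pass (adjusted p = 0.0855). The 3 phosphofructokinases had log2 fold changes of 0.01 to 0.03, none of them called.

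The old late inputs were set against the same young libraries, so the 2 comparisons are not independent, and here age and age at induction differ together. Hk2, Aldoa, Pkm, Ldha and Ldhb were higher, and 5 of 10 calls stand against 34.5% of genes called and 17% called higher. Hk2 stood at 8.89 to 13.9 CPM against 6.24 to 11.5 in the young (log2 fold change 0.37 ± 0.09, adjusted p = 0.00282). Ldhb stood at 481 to 541 CPM against 391 to 473 CPM, the 1 enzyme of the 10 whose old late and young libraries did not overlap, against 6.89% of 15156 genes (0.26 ± 0.05, adjusted p = 0.000359). Ldha stood at 269 to 348 CPM against 249.6 to 285 (0.17 ± 0.05, adjusted p = 0.00622), and Pkm at 1655 to 1818 against 1596 to 1729 (0.09 ± 0.03, adjusted p = 0.00484). Aldoa was close to the threshold (0.07 ± 0.03, adjusted p = 0.0491) and lost its call without 24 of the 29 libraries left out in turn. Hk3 stood at 1.11 to 3.54 CPM (0.47 ± 0.19, adjusted p = 0.0598) and passed when any 1 of 5 libraries was left out, among them old late replicate 2 (0.59, adjusted p = 0.0172). With females only, Hk2 (0.42, adjusted p = 0.00623) and Ldhb (0.18, adjusted p = 0.0286) were the 2 that passed.

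Markers of cell types moved with these differences. Of 20 microglia markers, 19 were higher in the old early and 20 in the old late inputs than in the young, with median log2 fold changes of 0.44 and 0.60, and their summed level ran from 634 to 740.1 CPM in the young, 859 to 1033 in the old early and 914 to 1324 in the old late inputs. The log2 fold changes of Hk2, 0.28 and 0.37, and of Hk3, 0.32 and 0.47, were below those medians. Of 10 astrocyte markers, 3 were higher in each old group (Gfap, Aldh1l1 and Sox9), and of 8 oligodendrocyte markers 7 and 8 were higher, with median log2 fold changes of 0.34 and 0.49. Of 4 red blood cell markers, 2 were higher in the old early inputs and 4 in the old late inputs, with medians of 0.93 and 1.47, the latter from 1.41 for Hba-a1 to 1.66 for Alas2. Of 10 neuron markers, 2 were higher in the old early inputs (Snap25 and Thy1, by 0.09 and 0.07), and 3 were lower in the old late inputs (Camk2a, Gad2 and Slc17a7, at -0.18, -0.16 and -0.11). The part of these cell types in the enzyme levels was not tested. Ly6g of neutrophils was at 0 in every library, and the 13 neutrophil and monocyte markers summed to 10.4 to 16.5 CPM in the young, 10.2 to 39.9 in the old early and 11.2 to 17.4 in the old late inputs.

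The isozyme make-up of the tissue moved little. The log2 ratio of Hk2 to Hk1 rose from -5.91 ± 0.3 in the young inputs (SD, n = 10) to -5.57 ± 0.16 in the old early inputs (n = 12, permutation p = 0.00208) and to -5.45 ± 0.22 in the old late inputs (n = 7, exact permutation p = 0.00278), each with an adjusted p of 0.025 over 18 ratio tests. These were the 2 ratios called of 18, in tests that held no sex term although the groups differed in sex make-up. Neither passed with females only, where the ratio was higher by 0.23 and 0.39 (adjusted p = 0.205 for both), and the call in the old late group was lost when any 1 of its replicates 3 to 6 was left out (adjusted p = 0.0607 each). Hk3 against Hk1 was higher by 0.41 and 0.53 but was not called (adjusted p = 0.137 and 0.196, exact or 100000-resample permutation test). In shares, Hk2 was 1.15 ± 0.225% of the hexokinase CPM per kb in the young, 1.44 ± 0.151% in the old early and 1.56 ± 0.228% in the old late inputs. The shares of Pfkm, 48.5 ± 0.594%, 48.5 ± 1.45% and 48.6 ± 1.3%, differed by less than the spread of libraries.

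**Figure D4:**
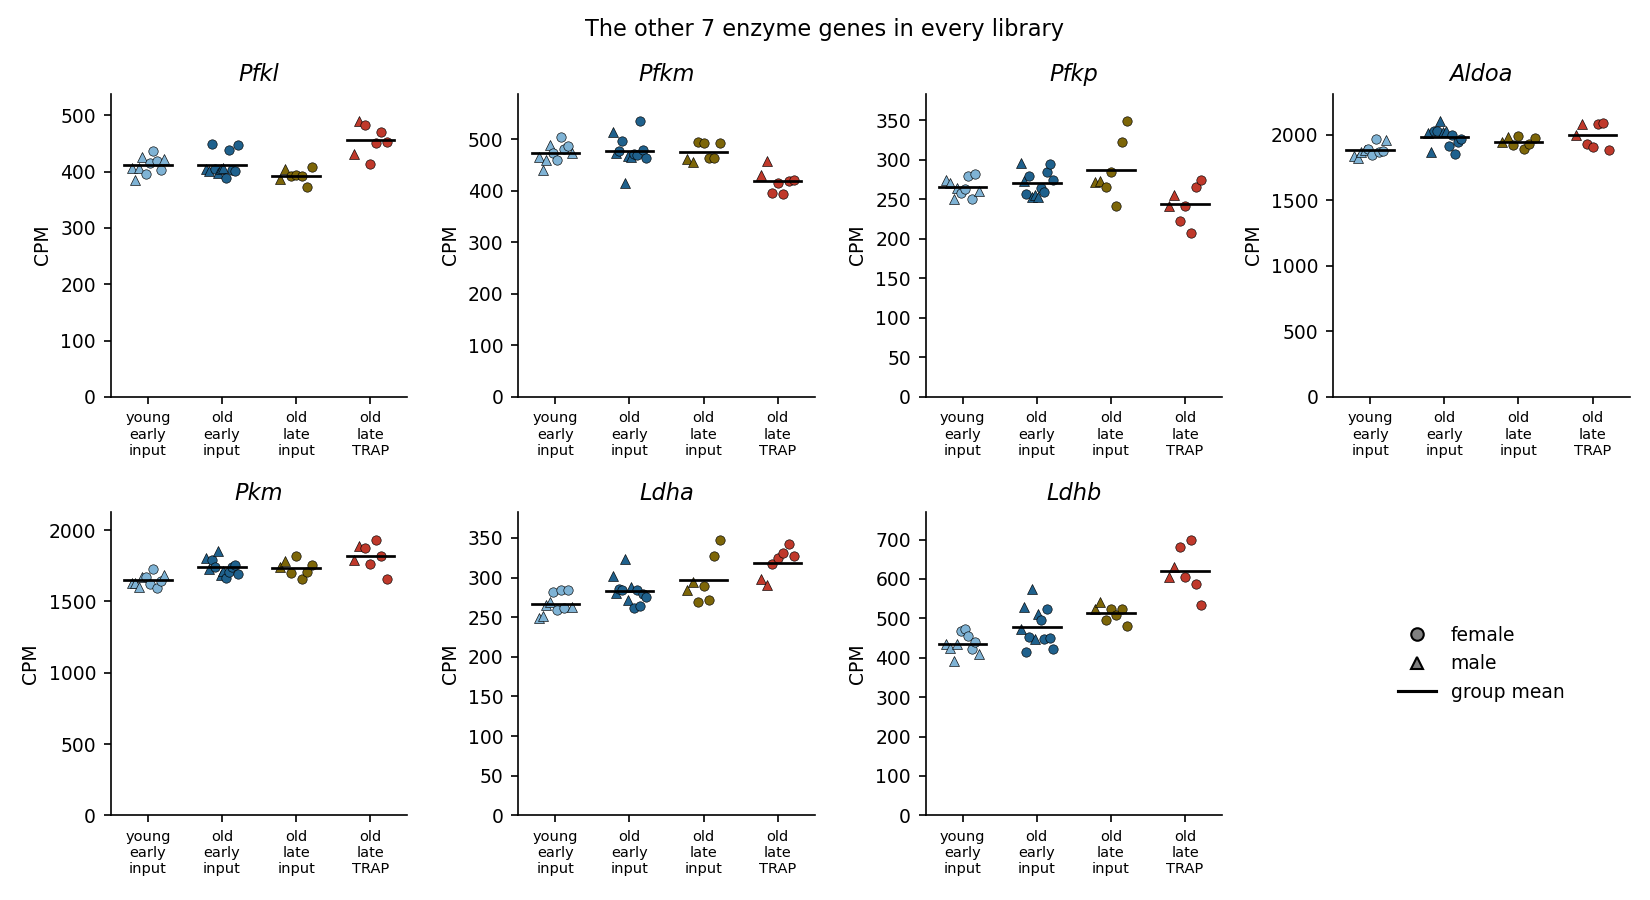
CPM of Pfkl, Pfkm, Pfkp, Aldoa, Pkm, Ldha and Ldhb in each library, with axes from 0. Circles are females, triangles males and lines group means. Ldhb rises from a mean of 435 in the young to 514 in the old late inputs and 620.3 in TRAP, while Aldoa and Pkm stay in narrow ranges.

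Among the other glycolysis enzymes, 6 of 14 were higher and 0 lower in the old early inputs, and 6 were higher in the old late inputs, against 13% and 17% of all genes called higher. Aldoc rose most in both, from 728 ± 26.5 CPM in the young (SD, n = 10) to 885 ± 56.5 in the old early (n = 12, log2 fold change 0.29 ± 0.03, adjusted p = 1.32e-07) and 882 ± 35.4 in the old late inputs (n = 7, 0.29 ± 0.04, adjusted p = 9.13e-07). Of 10 regulators, 2 were called in each comparison, against 25.6% and 34.5% of all genes. Hif1a was higher (0.10 ± 0.04, adjusted p = 0.0355) and Pfkfb2 lower (-0.18 ± 0.05, adjusted p = 0.00643) in the old early inputs. In the old late inputs 2 were lower, Pfkfb2 (-0.28 ± 0.06, adjusted p = 0.000352) and, named after its value was seen, Pfkfb3.

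Of 11 transporters, 4 were higher and 2 lower in the old early inputs and 5 higher and 2 lower in the old late inputs, against 25.6% and 34.5% of all genes called in either direction. Slc2a4 rose most in both, from 0.535 ± 0.229 CPM in the young to 1.14 ± 0.513 in the old early (log2 fold change 1.08 ± 0.28, adjusted p = 0.00502) and 1.26 ± 0.474 CPM in the old late inputs (1.25 ± 0.32, adjusted p = 0.00266). Slc2a6 fell most in both, by 0.18 and 0.37 on the log2 scale (adjusted p = 0.011 and 3.76e-05). The lactate exporter Slc16a3, singled out after its values were seen, stood at 3.27 ± 0.538, 5.05 ± 1.28 and 7.2 ± 1.51 CPM in young, old early and old late inputs and at 33.4 ± 13.1 CPM in TRAP.

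Between old animals induced early and late, 0 of the 10 enzymes passed the test, against 0.0334% of genes called (5 of 14948, with 1736 at an unadjusted p under 0.05). DESeq2 and limma voom also called 0 of the 10. Log2 fold changes ran from -0.07 ± 0.03 for Pfkl (adjusted p = 0.398) to 0.14 ± 0.18 for Hk3 (adjusted p = 0.799). Hk2 stood at 0.08 ± 0.09 (adjusted p = 0.753) and Ldhb at 0.11 ± 0.05 (adjusted p = 0.387). None of the 6 isozyme ratios was called between these groups, the smallest adjusted p of the permutation test being 0.365.

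Males and females of the 29 inputs were compared in the same fit. At an adjusted p under 0.05, 0 of 10 enzymes were called, against 0.174% of genes (26 of 14948, with 1632 at an unadjusted p under 0.05). Hk2 was just above the threshold, lower in males by a log2 fold change of -0.32 ± 0.07 (adjusted p = 0.0506 with edgeR). DESeq2 (adjusted p = 0.00924) and limma voom (0.0492) called it, as did edgeR when any 1 of 8 libraries was left out. Hk2 averaged 9.74 ± 1.25 CPM in young females and 7.92 ± 1.58 in young males (n = 5 each), 11.7 ± 1.08 in 7 and 9.71 ± 1.37 in 5 old early animals, and 12.9 ± 1.11 in 5 old late females against 9.49 and 8.89 CPM in the 2 males. Females averaged higher in each of the 3 groups, and the sexes overlapped in the young and the old early groups. In TRAP the 5 females stood at 94.0 to 166 CPM and the 2 males at 93.1 and 87.9, and Hk3 stood at 40 to 78.1 CPM in females and 35.1 and 29.2 CPM in males. Microglia markers of the same TRAP libraries summed to 17130.1 to 26484 CPM in females and to 16675 and 16506 CPM in males. These TRAP values were looked at after the input result was seen and were not tested.

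The difference between the sexes in the effect of age was tested in the 22 early-induced inputs. At an adjusted p under 0.05, 0 of 10 enzymes were called, and 0% of the 14953 genes tested were (2301 at an unadjusted p under 0.05, DESeq2 13 genes). The smallest adjusted p of any gene was 0.222. Ldhb, at an unadjusted p of 0.00521 in edgeR's test, shared that value with genes of smaller unadjusted p, so it was not the top gene. Ldhb averaged 452 ± 21.3 CPM in young and 458 ± 38.6 CPM in old early females (n = 5 and 7), and 419 ± 18.5 and 507 ± 49.7 CPM in young and old early males (n = 5 and 5). In males the groups did not overlap for Pkm, Ldha and Ldhb, 3 of the 10 against 12.6% of 15156 genes. For Pkm the highest young male and the lowest old male both stood at 1684 CPM when rounded. In females the ranges overlapped for each of the 10 enzymes, with Ldhb at 422 to 473 CPM in young and 415 to 523 CPM in old. The share over all genes was not taken in females. Ldhb ran from 391 to 435 CPM in young and from 447 to 575 CPM in old males, and its interaction was 0.26 ± 0.09 on the log2 scale (SE). Without old early replicate 6, a male, the adjusted p was 0.0438 and 453 genes passed in all. Ldha showed a like pattern that did not pass, 275 ± 12.8 and 277 ± 10.1 CPM in young and old females and 259.8 ± 9.12 and 293 ± 20.1 CPM in males (interaction 0.17 ± 0.06, adjusted p = 0.237). Hk1 went the other way, 518 ± 8.93 and 532 ± 25.8 CPM in females and 544 ± 7.2 and 496 ± 43 CPM in males (-0.17 ± 0.06, adjusted p = 0.245). In the same contrast the median log2 value was 2.92 for 5 choroid plexus markers and 1.58 for 4 red blood cell markers, none called. Old early replicate 5, a male, held the highest Ldhb (575 CPM) and Ldha (323 CPM) and the lowest Hk1 (451 CPM) of its group. The part of tissue content in these enzyme levels was not tested.

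**Figure D5:**
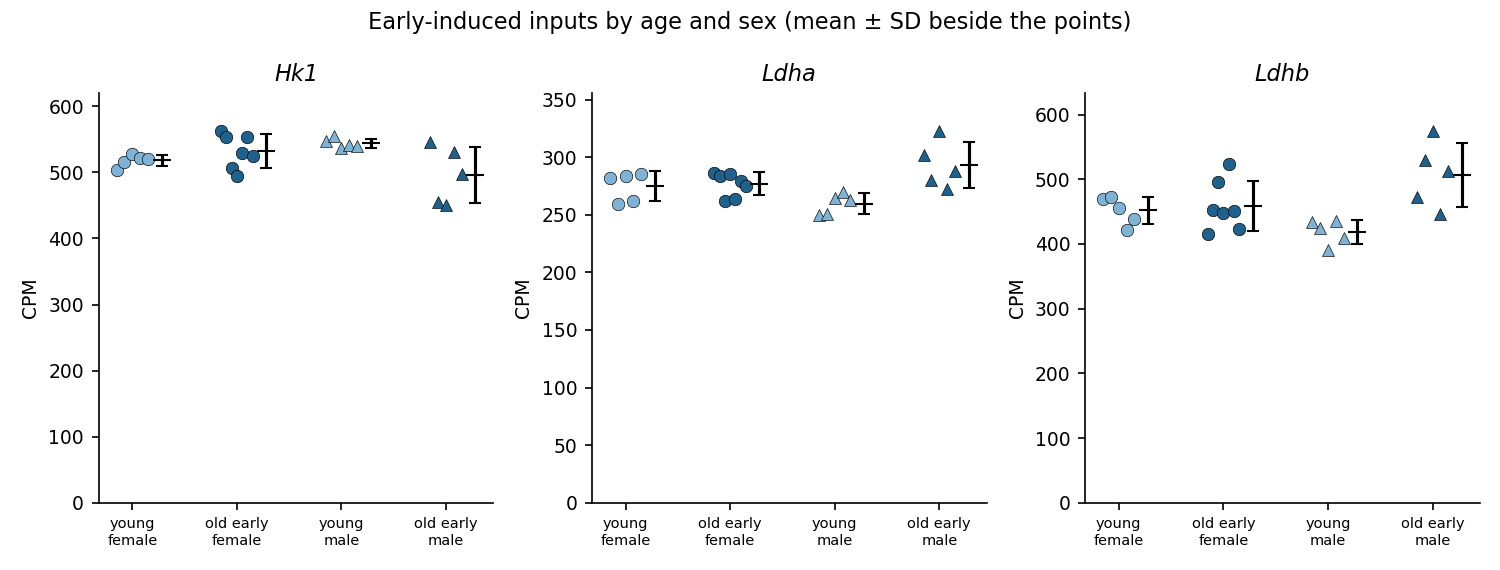
CPM of Hk1, Ldha and Ldhb in the 22 early-induced inputs by age and sex, with mean and SD beside the points and axes from 0. Ldhb in old males, 447 to 575 CPM, lies above young males, while old and young females overlap.

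The genes whose levels ran most nearly parallel to each enzyme over the 29 inputs were named as a description, by Pearson's r of log2 CPM among 12954 genes with an average log2 CPM over 1. The libraries share group, sex and depth, and genes are not independent. For Hk3 they were Cd52, Itgam and Slco2b1 (r = 0.71, 0.70 and 0.70), of which Itgam is a marker on the microglia list. For Hk2 they were Serpina3n, Pld4 and Eif2s3x (0.80, 0.77 and 0.77). Among those of Hk1 were Glg1 and Smarcc2 (0.88 and 0.87). Pfkm ran with Clstn1, Sv2a and Pcdh9 (0.76, 0.76 and 0.75), Pfkp with Vgf, Car10 and Cacng3 (0.86, 0.83 and 0.82), and Pfkl with Sec23a, Cadps2 and Zfp712 (0.71, 0.66 and 0.66). In the lower pathway, Aldoa ran with Gapdh, Psma2 and Itpka (0.82, 0.82 and 0.81), Pkm with Tpi1, Psmc1 and Eif4h (0.89, 0.88 and 0.87), Ldha with Eno1, Atf4 and Syt5 (0.85, 0.80 and 0.77), and Ldhb with Ctsl, Odc1 and Ergic3 (0.90, 0.89 and 0.89). With group means removed, r over the genes named here ran from 0.55 (Cadps2 with Pfkl) to 0.88 (Vgf with Pfkp and Glg1 with Hk1). It was 0.67, 0.63 and 0.72 for the partners of Hk2, in the order above, and 0.70, 0.64 and 0.63 for those of Hk3. Differences between the sexes were not removed from these values, and Hk2 averaged lower in males, as given above.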

How the data were processed

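The deposited table holds an estimated count for each of 36172 genes in 36 library columns, marked raw per the file headers. Of the nonzero values, 77.4% were not whole. The submitters' processing notes name the build mm10 and DESeq2 with no role, and the aligner, counter, annotation and strand handling are not given in the sources used here. Totals were 12.9 to 20.4 M, and PCR reads without molecular identifiers are not independent molecules.

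Counts were rounded and tested with edgeR 4.0.16 in R 4.3.3 (filterByExpr with a minimum count of 10, TMM, glmQLFit, glmQLFTest), called at a Benjamini-Hochberg adjusted p under 0.05. TRAP against input used 14 libraries with sex as covariate. Contrasts of inputs used 29 libraries with group and sex, and the interaction used the 22 early-induced inputs. SEs were taken from the F statistic of that test. Ratios of isozymes were tested in scipy 1.17.1, with no sex term. Levels per kb used the longest coding principal transcript of GENCODE M21. Promoters came from RefSeq (GRCm38.p6), where all 10 genes matched. Libraries of an animal were paired by the animal number in the labels, and in all 7 pairs their deviations from group means correlated, from 0.292 to 0.439, against a median of -0.085 between animals. No replicate pair agreed within sampling noise (chi-square per degree of freedom 3.66 to 47.44). The 36 libraries came from 29 animals by the labels, since each TRAP library shares its animal with an input. Shares of genes whose groups do not overlap were taken over the 15156 genes that passed the filter in all 36 libraries together.

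The enzymes and lists were chosen with earlier results of these data known. Named genes were the 10 enzymes, the largest increase and decrease among calls of each pathway list (other glycolysis enzymes, regulators, transporters), and the 3 genes most alike in each enzyme's profile. Some genes that this rule names are not reported here. Of the list genes, 3 were matched by identifier and 1 red blood cell gene was not matched. Alternatives were other scalings, filters, tools (DESeq2 1.42.0, limma voom 3.58.1), covariates, subsets, prior counts and each library left out. The tests were tested on simulated data, which for edgeR held no pairing of animals and no differences in tissue content. How the tests behave under such variation was not simulated.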

Additional observations from a re-analysis of the deposited data

How the results depend on the processing

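With the animal as replicate block, 7 enzymes were called in TRAP against input, as without it, and the block changed no call. Leaving out each library in turn left TRAP calls between 6 and 7. With females only, 0 enzymes were called in old early and 2 in old late inputs against young, and 0 isozyme ratios between inputs. DESeq2 and limma voom each called 1 enzyme between the sexes (Hk2), and leaving out single libraries gave 0 to 1. The interaction gave 0 to 1 and isozyme ratios between inputs 1 to 4. Signs that turned all belonged to differences that were not called. In TRAP these were Aldoa (-0.12 with upper quartile scaling, called at an adjusted p of 0.0226 there, and -0.08 with library size only), Pkm (-0.09 and -0.05) and Ldha (-0.05 and -0.02), and Aldoa ran from -0.004 to 0.04 over libraries left out. With females only, Hk1 was at 0.04 in both old groups against young, the ratio of Hk3 to Hk2 at -0.06 and Pfkl to Pfkm at 0.008 in old early against young. Over libraries left out, Pfkl ran from -0.007 to 0.02 in old early and Pfkm from -0.009 to 0.02 in old late against young. The ratio of Hk3 to Hk2 ran from -0.04 to 0.13 in old early against young, from -0.03 to 0.18 in old late against young and from -0.07 to 0.12 between the old groups, and Pfkl to Pfkm from -0.02 to 0.01 in old early against young. The cause was not tested. Of the values of single enzymes and ratios under all alternatives, 1798 kept direction and call, 44 lost and 26 gained a call, and 34 turned. Over all genes, females only gave 1198 calls against 3826 in old early and 2787 against 5151 in old late inputs against young, and 182 between the old groups against 5, where DESeq2 gave 58 and the fit of those groups alone 0. DESeq2 gave 64 between the sexes against 26, and 13 for the interaction against 0. Hk3 in the inputs rests on 14 to 63 counts per library, which limits its precision.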
